A study of Mus musculus with 3 samples.

Results

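The arrays carried 16251 probes designed against intergenic noncoding RNA, of 55681 non-control probes in all. They were chosen by their design prefix (A_30_P) alone, with no measured value, and each was present as 1 spot. Most were named only by the genomic interval that the design targeted: 16194 probes lay on 4610 named intervals over 20 chromosomes, with none on Y. The other 57 probes carried 12 RNA names, which were BRN1-A, H19, HOTAIR, KCNQ1ot1, lincP21, NEAT1, NEAT2, NRON, PINC, TSIX, TUG1 and XIST. A name held a median of 3 probes and at most 10, and 690 names held 1 probe. The intervals had a median length of 10676 bp, and they ranged from 62 to 7128487 bp, so an interval is a design region and not a measured transcript. Among the intervals, 1067 were given on both strands.

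Long intergenic noncoding RNAs are transcripts of RNA polymerase II that are usually spliced and polyadenylated and lie outside protein-coding genes. They tend to be less abundant and more restricted to a tissue than messenger RNAs, and the brain is rich in them. The best known act on chromatin or in the nucleus: Xist coats and silences an X chromosome in female cells, Neat1 scaffolds nuclear paraspeckles, and Malat1 accumulates in nuclear speckles.

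RNA was taken from mouse dorsal cortex on postnatal day 4. Each of the 3 two-colour Agilent arrays set 1 pup labelled wild-type, in the green dye Cy3, against 1 pup labelled Brpf1-deficient, in the red dye Cy5. Brpf1 encodes a scaffold protein of histone acetyltransferase complexes. The sources used here give neither allele, strain, sex nor litter of the pups. The p-values rest on only these 3 pairs, with each probe's spread drawn by limma towards that of all tested probes. By the signals of XIST and of Y-linked genes, given further on, the pups of each pair appeared to differ in sex, with the female pattern in Cy5 on arrays 1 and 3 and in Cy3 on array 2. Each ratio therefore also compares pups of different apparent sex, and the part of sex in the called differences was not tested.

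Every array had the same dye assignment, so dye and genotype cannot be told apart. The Brpf1 probe itself was brighter in Cy5 on all 3 arrays, with Cy5 over Cy3 at 0.63, 0.73 and 0.96 on the log2 scale (mean 0.77 ± 0.17 SD, adjusted p = 0.00451 by limma). That goes against the label of the channel, and the authors' deposited table gives Brpf1 a log2 fold change of -0.80. The genotype behind each direction is therefore not settled, and all differences are given here as brighter in Cy5 (labelled Brpf1-deficient) or brighter in Cy3 (labelled wild-type). All 11 dorsal cortex markers checked passed the detection filter, and 5 of them were brighter in Cy5 and 2 in Cy3 (median log2 ratio 0.21, from -1.58 to 0.38). Of 7 striatal markers, 6 were brighter in Cy5 with a median log2 ratio of 0.71 over the 7, as were 2 of 4 erythroid markers (median 0.88 over the 4) and 2 of 5 microglial markers, while 2 of 4 astrocyte markers were brighter in Cy3. The part of these differences in the results on intergenic probes was not tested.

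The sequences of the probes and the mm9 genome were not used here. For the named RNAs on which the results turn, the RefSeq promoters (250 bases before to 50 after the start, GRCm38.p6) are shown for the 3 that RefSeq's promoter table holds, with CG dinucleotides in capitals. RefSeq lists Neat2 as a synonym of Malat1.
Xist promoter (chrX:103483184-103483483, minus strand): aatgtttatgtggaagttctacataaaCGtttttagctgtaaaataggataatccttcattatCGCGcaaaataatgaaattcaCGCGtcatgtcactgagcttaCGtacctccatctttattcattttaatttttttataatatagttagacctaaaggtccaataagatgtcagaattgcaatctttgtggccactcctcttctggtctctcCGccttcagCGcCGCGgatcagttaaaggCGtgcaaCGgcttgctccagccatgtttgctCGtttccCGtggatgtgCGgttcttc
Malat1 promoter (chr19:5802623-5802922, minus strand): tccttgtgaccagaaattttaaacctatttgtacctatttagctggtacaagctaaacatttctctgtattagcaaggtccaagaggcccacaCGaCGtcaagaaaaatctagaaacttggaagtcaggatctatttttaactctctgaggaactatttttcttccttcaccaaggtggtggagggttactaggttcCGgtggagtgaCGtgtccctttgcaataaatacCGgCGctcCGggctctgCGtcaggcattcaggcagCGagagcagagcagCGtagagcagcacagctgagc
Tug1 promoter (chr11:3648765-3649064, minus strand): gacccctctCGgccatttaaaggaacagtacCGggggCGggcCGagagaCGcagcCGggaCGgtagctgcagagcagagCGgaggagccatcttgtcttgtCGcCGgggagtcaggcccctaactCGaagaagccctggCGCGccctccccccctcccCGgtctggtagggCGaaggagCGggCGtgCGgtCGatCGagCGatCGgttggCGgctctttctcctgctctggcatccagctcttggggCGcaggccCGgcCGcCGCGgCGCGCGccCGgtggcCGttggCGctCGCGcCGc
The Tug1 promoter holds 37 CG dinucleotides and 71.3% G and C, the Xist promoter 15 and 41.3%, and the Malat1 promoter 10 and 47.0%. Over the 32851 RefSeq promoters of this length the median is 7 CG dinucleotides, with quartiles of 3 and 20. The Tug1 promoter has more of them than 94.4% of all promoters, the Xist promoter more than 65.4% and the Malat1 promoter more than 56.5%.

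Detection was lower among the intergenic probes than among the other 39430 probes in both channels of every array. In Cy3, 39.8%, 37.7% and 40.0% of the intergenic probes were well above background on arrays 1, 2 and 3, by the flag of the scanner software. In Cy5 the shares were 34.9%, 34.8% and 35.0%. The other probes reached 67.4% to 68.0% in Cy3 and 65.6% to 66.1% in Cy5, so the intergenic probes had the wider gap between the channels. Under a looser scanner flag, positive and significant, the mean share over arrays was 65.6% in Cy3 and 60.4% in Cy5, and under a cutoff of the background median plus 2 background SD it was 55.9% and 30.4%. Cy3 held more detected probes under all 3 rules, among intergenic and other probes alike. Under the looser flag the other probes reached 80.3% to 81.6% in Cy3 and 78.5% to 79.1% in Cy5. Under the background cutoff they reached 70.8% to 81.1% in Cy3 and 60.7% to 64.5% in Cy5.

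**Figure D1:**
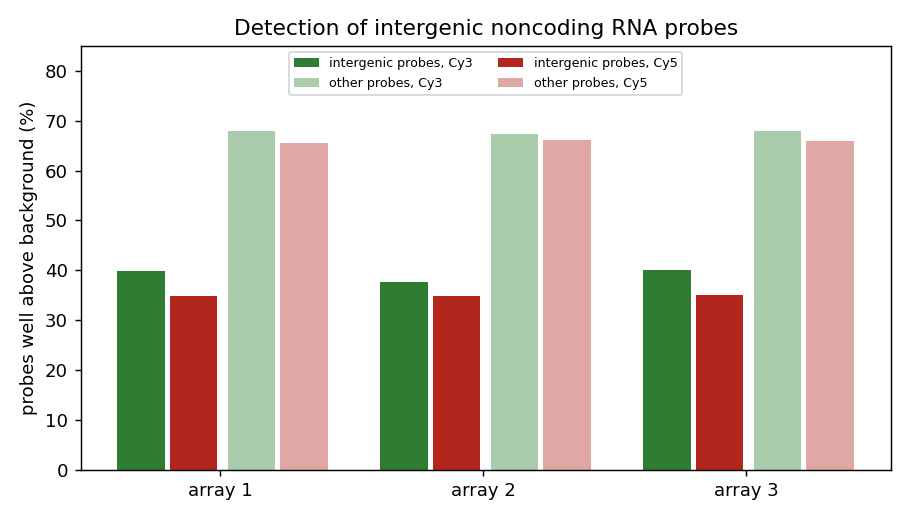
Percentage of probes well above background on each array, for intergenic probes (dark bars) and all other non-control probes (pale bars), in Cy3 (green) and Cy5 (red). Intergenic probes reach 34.8% to 40.0% and other probes 65.6% to 68.0%, and in both sets the Cy3 bar is the higher on every array.

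Most intergenic probes were seen either on every array in both dyes or on no array at all. Both channels of all 3 arrays detected 4791 of them (29.5%, against 62.5% of the other probes), and neither channel of any array detected 8722 (53.7%, against 28.3%). Detection on all arrays in Cy3 and on none in Cy5 was seen for 145 (0.892%, against 0.441%), and the opposite pattern for 6 (0.0369%, against 0.0406%). No probe on any array was detected for 1325 of the 4622 names. A probe was tested where 2 or more arrays showed it well above background in either channel, which held for 6269 intergenic probes (38.6%, against 67.8% of the other probes) under 2798 names. Every statement on ratios below covers those 6269 and not all 16251.

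Among the 6269 tested probes, 1089 differed between the channels at an adjusted p under 0.05 (limma, Benjamini-Hochberg over 32983 probes), which is 17.4% against 16.9% of all probes tested. This overall share is near the background. The directions were unequal: 835 intergenic probes were brighter in Cy3 (13.3%, against 9.41% of all probes) and 254 in Cy5 (4.05%, against 7.53% of all probes). Cy5 therefore held 23.3% of the intergenic calls, and 49.6% of the 4496 calls among the other probes. The lean towards Cy3 moved with the scaling. With each array centred on its median in place of loess, Cy3 held 485 of the intergenic calls and Cy5 394 (44.8% in Cy5), and with the scanner's processed signals 621 and 75 (10.8%). Over all probes tested, Cy5 held 44.4% of the calls in the main setting, 80.6% with median centring and 21.8% with processed signals, so in each setting the intergenic share was below that of all probes. Without array 3 the calls dropped to 379 in Cy3 and 87 in Cy5, or 7.43% of the tested intergenic probes. Over all probes tested they dropped too, from 3103 to 1370 in Cy3 and from 2482 to 949 in Cy5.

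The median log2 ratio of the tested intergenic probes was -0.04, at -0.05, -0.02 and -0.05 on arrays 1, 2 and 3, against -0.01 for the other probes. With processed signals the median of all probes tested lay at -0.12 and that of the intergenic probes at -0.17, and with median centring the same medians were 0.07 and -0.01. In both these settings, as in the main one, the intergenic median lay below that of all probes. With 1 probe per name the order was reversed, at 0.0032 for the intergenic probes and -0.0073 for all probes. The difference between the sets was not tested.

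Intergenic probes were dimmer than other probes, with a median log2 intensity of 8.10 against 10.76 among those tested, so the directions were also counted after all tested probes had been split by intensity into 4 equal parts. In the dimmest part, 20.6% of the intergenic calls and 47.0% of the other calls were brighter in Cy5. In the 2 middle parts the intergenic shares were 22.9% and 22.7%, against 50.8% and 50.7%. The 263 intergenic probes of the brightest part differed least from the rest: 30 were brighter in Cy5 and 42 in Cy3, or 41.7% in Cy5 against 48.3% of the other calls.

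**Figure D2:**
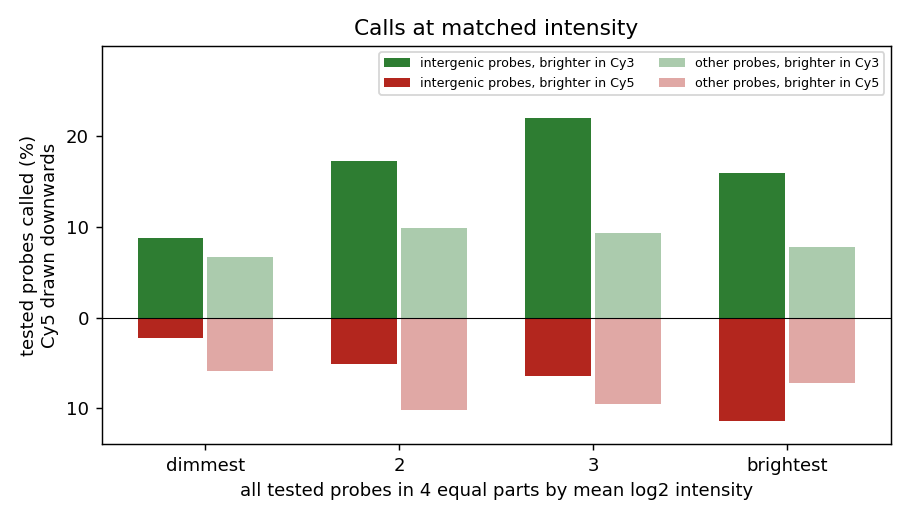
Percentage of tested probes called brighter in Cy3 (green, upwards) and in Cy5 (red, drawn downwards) in each of 4 equal parts of all tested probes by mean log2 intensity, for intergenic probes (dark) and other probes (pale). The Cy3 bars of the intergenic probes exceed their Cy5 bars in all 4 parts, with the smallest gap in the brightest.

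Most called differences were small. Of the 835 probes brighter in Cy3, 636 differed by less than 0.5 on the log2 scale, and 219 of the 254 brighter in Cy5 did so. Among the called intergenic probes, 5 reached a difference of 2-fold or more, all brighter in Cy3. The XIST probes, which differed more widely on each array, were not called. The median ratios of the Cy3 calls on arrays 1, 2 and 3 were -0.50, -0.34 and -0.37, and those of the Cy5 calls 0.41, 0.33 and 0.30. Array 1 gave the largest difference for 540 of the 835 and for 146 of the 254. Leaving XIST aside, the ratios of the tested intergenic probes correlated between arrays at r = 0.61 (arrays 1 and 2), 0.66 (arrays 1 and 3) and 0.61 (arrays 2 and 3) across probes, which are not independent replicates.

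**Figure D3:**
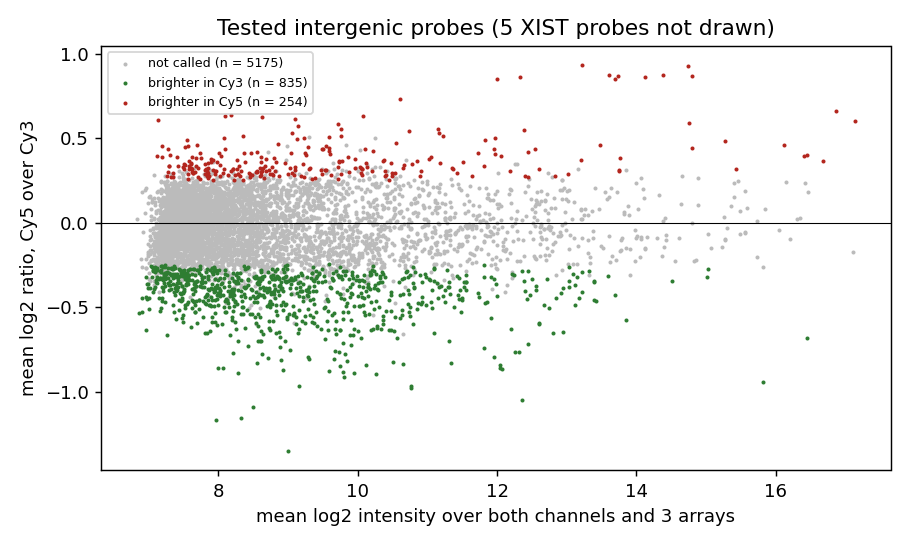
Mean log2 ratio of Cy5 over Cy3 over 3 arrays against mean log2 intensity, 1 point per tested intergenic probe, with calls brighter in Cy3 in green, calls brighter in Cy5 in red and other probes in grey. The 5 XIST probes are not drawn. The 5 lowest points are the Cy3 calls of 2-fold or more, down to -1.35, and the largest Cy5 ratio is 0.93.

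The strongest intergenic differences brighter in Cy5 came from 3 names, not shown to be separate RNAs, with 10 probes between 0.85 and 0.93. The first was BRN1-A, all 4 probes of which were called. Its median Cy3 signals on arrays 1, 2 and 3, taken over the 4 probes, were 11294, 10499 and 10091, and its median Cy5 signals 41554, 36354 and 37306. These are signals before normalization, where Cy5 was brighter overall. After loess the mean log2 ratios were 0.99, 0.76 and 0.89, and the 4 probes ranged from 0.85 to 0.93 (adjusted p from 0.00138 to 0.00202 by limma). All 4 probes lay above 0 on every array. A probe outside the intergenic design for Pantr1, which RefSeq also lists as linc-Brn1a, had ratios of 0.96, 0.74 and 0.91 (mean 0.87 ± 0.12 SD, adjusted p = 0.00167 by limma). Pantr1 is a brain noncoding RNA that neighbours Pou3f3, which encodes the neural transcription factor Brn1. Pou3f3 itself had ratios of 0.26, 0.41 and 0.15 and did not pass the threshold (mean 0.27 ± 0.13 SD, adjusted p = 0.0517 by limma).

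The second was an interval at chr1:42689799-42749799 (mm9, reverse strand), the probes of which split in 2 sets. A bright set of 3 probes, at log2 intensities of 13.74 to 14.39, had mean ratios of 0.86 to 0.87 and was called. A dim set of 3, at 7.23 to 7.86, had ratios of 0.19 to 0.20 and was not called. On arrays 1, 2 and 3 the probe A_30_P01030648 of the bright set gave 0.98, 0.77 and 0.88, close to the BRN1-A means of 0.99, 0.76 and 0.89. Pantr1 and Pou3f3 also lie on chromosome 1. Whether this interval and BRN1-A target the same RNA was not tested, so they do not count as separate findings.

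The third was an interval at chr19:19005109-19008657 (mm9, reverse strand), with all 3 probes called. Their mean ratios on arrays 1, 2 and 3 were 0.76, 0.88 and 1.01, so array 3 had the largest ratio and not array 1 as for BRN1-A, and the probes ranged from 0.85 to 0.93 (adjusted p from 0.000964 to 0.00415 by limma). For the brightest of them, A_30_P01025044, the median signals were 5734, 5145 and 4656 in Cy3 and 17608, 18103 and 17058 in Cy5. The nearest other intergenic interval lay 2186984 bp away, and its nearest probe was not detected well enough to be tested. BRN1-A and this interval kept all their calls with median centring, with processed signals and without any 1 array.

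The other probes among the 12 with the largest ratio were single. A probe at chr15:85412264-85549139 (mm9, forward strand) had ratios of 0.50, 0.72 and 0.98 (mean 0.73 ± 0.24 SD), and 1 of the 6 other tested probes of that interval was also called, at 0.50. A probe at chr11:22681800-22707775 (mm9, reverse strand) had ratios of 0.85, 0.49 and 0.64 (mean 0.66 ± 0.18 SD). Both missed the threshold with processed signals, at 0.65 and 0.31 (adjusted p = 0.0535 and 0.0757 by limma).

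The strongest differences brighter in Cy3 lay at chr8:94841965-94881130 (mm9, reverse strand). Probe A_30_P01032788 gave ratios of -1.24, -1.55 and -1.26 (mean -1.35 ± 0.18 SD, adjusted p = 0.000406 by limma), from median signals of 743.5, 576.5 and 564 in Cy3 and 501, 344 and 378 in Cy5. A second probe of the interval gave a mean of -1.17, and 1 probe of the overlapping interval chr8:94849929-94870274 a mean of -1.16. All 3 were lower in Cy5 on every array, and the order of the arrays differed between them. The interval was not uniform: the other tested probe, at a log2 intensity of 7.26, had a mean ratio of 0.06 and was not called, and 7 of the 11 probes of the overlapping intervals were not tested.

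At chr7:128341797-128414692 (mm9, reverse strand) all 5 tested probes were brighter in Cy3. Their mean ratios ranged from -0.96 to -0.62, and the array means were -0.83, -0.82 and -0.77 (adjusted p from 0.000624 to 0.00851 by limma). This was the most even of the strong intervals across arrays, and all 5 calls held with median centring, with processed signals and without any 1 array. The merged region of overlapping intervals around it held 13 probes, and these 5 were the tested ones.

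Several other strong Cy3 differences were largest on array 1. At chr7:67119535-67120213 (mm9, reverse strand) the 3 probes ranged from -0.84 to -0.76, with array means of -1.37, -0.59 and -0.44. With processed signals none of the 3 passed the threshold (adjusted p from 0.0623 to 0.0668 by limma), and with median centring 2 of them did not. Single probes at chr6:37630192-37682692 (reverse), chr18:5951953-5952386 (forward), chr3:19179899-19216399 (reverse) and chr13:23517278-23523756 (forward), all in mm9, had means of -1.09, -1.05, -0.98 and -0.96. Their ratios on array 1 were -1.60, -1.47, -1.41 and -1.33, on array 2 they were -0.64, -0.69, -0.61 and -0.43, and on array 3 they were -1.03, -0.98, -0.91 and -1.13. For each of these 4 probes array 1 had the largest difference and array 2 the smallest, and all 3 arrays had the same sign. The chr13 probe was nearly as far from 0 on array 3 as on array 1. The chr13 probe missed the threshold with processed signals (adjusted p = 0.0528 by limma).

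Other probes of such intervals did not always follow. At chr3:19179899-19216399, 2 of 6 tested probes were called, and the 6 ranged from -0.98 to 0.05. At chr3:88009045-88036270 (mm9, reverse strand) 2 of 7 were called, and the 7 ranged from -0.89 to 0.02. At chr18:36449530-36456800 (mm9, forward strand) 4 of 8 were called, and all 8 were below 0, from -0.91 to -0.19. The probe at -0.91 missed the threshold with processed signals (adjusted p = 0.0524 by limma). A probe at chrX:6942702-6954713 (mm9, forward strand), with a mean of -0.89, was the single tested probe of its interval.

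Of the 10 brightest intergenic probes, 2 lay in the interval chr19:5801802-5802597 (mm9, reverse strand). Its coordinates are near those of the Malat1 promoter shown above (chr19:5802623-5802922, GRCm38.p6, minus strand), but the builds were not matched. Whether its probes target Malat1, named NEAT2 in this design, was not tested. The 3 probes of this interval had log2 intensities of 15.82, 16.45 and 17.11 and mean ratios of -0.94, -0.68 and -0.17, so the brightest had the smallest difference. The first 2 were called, but neither with median centring or with processed signals, and the third turned to 0.44 with median centring. A probe at chr4:141527564-141547339 (mm9, forward strand), at a log2 intensity of 17.13, had even ratios of 0.62, 0.62 and 0.58 (mean 0.61 ± 0.02 SD, adjusted p = 0.00489 by limma). With processed signals it was at 0.12 and not called. Among the 10 brightest, 6 were called, 5 of them brighter in Cy5, and with processed signals none of these 6 calls held.

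Probes seen in 1 channel only were given a bound of the difference. They passed the filter through that channel alone, so the direction of their calls follows from the selection. Of the 145 detected in Cy3 alone, 50 were called, and 143 had a bound above 1-fold, with a median of 1.18-fold. The bound sets the brighter channel against the dim channel's own value, or against the lowest signal well above background where that was higher. The own value was the higher on every array for 136 of the 145. Their bound is thus the fitted fold itself (within 0.001 on the log2 scale), an estimate and not a lower limit. The largest bound, 1.58-fold brighter in Cy3, belonged to a probe at chr3:41143423-41359623 (mm9, reverse strand). Probes at chr5:92548501-92566401 (reverse), chr12:110769101-110771113 (forward), chr12:88216447-88224965 (forward), chr9:122481619-122588714 (forward) and chr3:37543528-37546874 (forward), all in mm9, were also brighter in Cy3. Their bounds were 1.44, 1.42, 1.42, 1.38 and 1.37-fold. For 5 of these 6 probes, among them the chr3:41143423-41359623 probe, the bound equals the fitted fold. The chr3:41143423-41359623 and chr5 probes missed the threshold with processed signals (adjusted p = 0.0511 and 0.0658 by limma). Of the 6 detected in Cy5 alone, 5 were called, and the largest bound was 1.37-fold, with all 6 bounds equal to the fitted fold. These bounds are open to dye bias, since no array had the dyes swapped.

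The named noncoding RNAs showed calls in both directions and wide gaps in detection. NEAT1, the paraspeckle scaffold, was brighter in Cy3 with all 5 probes, from -0.49 to -0.33, and array means of -0.43, -0.33 and -0.48 (adjusted p from 0.0125 to 0.0269 by limma). A probe for Neat1 outside the intergenic design gave -0.48 (adjusted p = 0.00996 by limma). All 5 probes were below 0 on every array. Without array 3, 2 of the 5 calls remained, and with median centring 4.

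NEAT2, which is Malat1, was also brighter in Cy3 with all 3 probes, from -0.33 to -0.31, and array means of -0.18, -0.35 and -0.44 (adjusted p from 0.0284 to 0.0448 by limma). The outside probe for Malat1 gave -0.39 (adjusted p = 0.0178 by limma). These calls were close to the threshold: none of the 3 held with median centring, without array 2 or without array 3, and the median of the 3 probes stayed below 0 in all these settings, at -0.23, -0.32 and -0.29.

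TUG1, a widely expressed noncoding RNA with a role in the developing retina, had 2 of 5 probes called, both brighter in Cy3. The 5 ranged from -0.41 to -0.08, and none of 3 outside probes for Tug1, from -0.23 to -0.11, passed the threshold. Its direction depended on the scaling, since the median of the 5 probes was -0.17 with loess and 0.03 with median centring. No probe was called with median centring or with processed signals, and 1 was called without array 1 or without array 3. An interval given without strand at chr3:34856791-34869544 (mm9) had 2 of 3 probes brighter in Cy3, at -0.51 and -0.40. The other probe was at -0.23 and not called, and 1 call held with median centring and 1 without array 3. Another such interval, at chr17:12941161-12944859 (mm9), had 1 of 5 probes called, at -0.27 (adjusted p = 0.0490 by limma). That call was lost with median centring, with processed signals, without background subtraction and without the filter (adjusted p = 0.0787, 0.0560, 0.0678 and 0.0516 by limma), and it was also lost when array 2 (adjusted p = 0.106) or array 3 (adjusted p = 0.252) was left out.

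H19, an imprinted noncoding RNA, was tested with all 5 probes and had no call. Its array means were 0.17, -0.17 and -0.11, so the arrays disagreed in sign. The outside probe for H19 was not well above background in either channel of any array, so the designs differed in detection. HOTAIR, which is transcribed from a Hox cluster, had 1 detected probe of 5, at a mean of 0.19, which was not called. KCNQ1ot1, an imprinted antisense RNA, also had 1 tested probe of 5, at 0.17 and not called, while 2 outside probes for Kcnq1ot1 were at -0.74 (adjusted p = 0.0266 by limma) and -0.34 (not called). The designs thus differed in sign for this RNA. NRON had 2 tested probes, neither called. PINC, lincP21 and TSIX had no tested probe, and their median signals over the probes lay between 62 and 123 in both channels of all arrays.

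**Figure D4:**
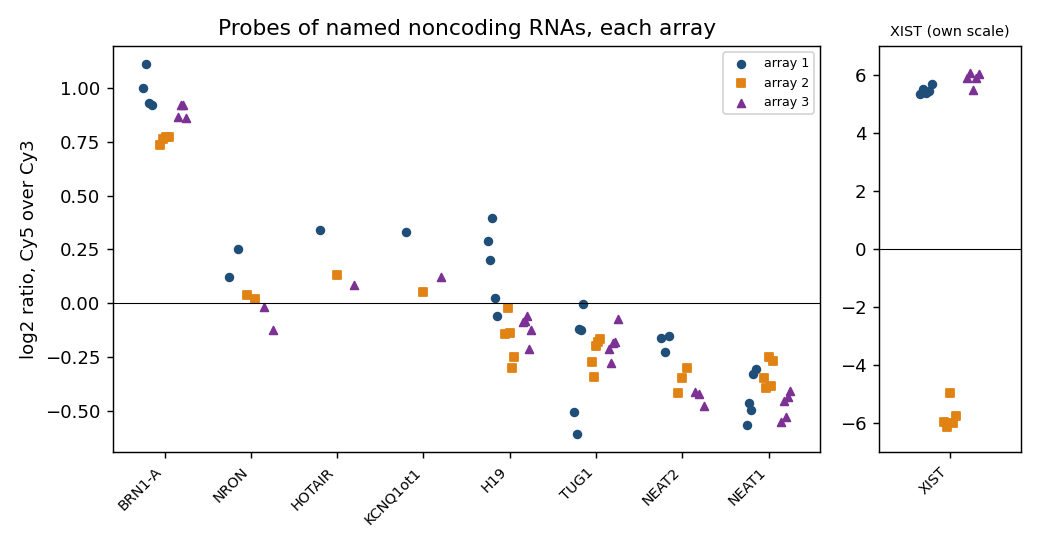
Log2 ratio of Cy5 over Cy3 on each array (array 1 circles, array 2 squares, array 3 triangles), 1 point per tested probe, for the 9 named noncoding RNAs with a tested probe; XIST is drawn on its own scale at the right. BRN1-A lies above 0 and NEAT1 and NEAT2 below 0 on all arrays, and XIST lies near 5.5 on array 1, -5.7 on array 2 and 5.9 on array 3.

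XIST had the widest differences of all intergenic probes and no call. Its 5 probes gave mean ratios of 5.48, -5.75 and 5.87 on arrays 1, 2 and 3, with ranges over the probes of 5.33 to 5.69, -6.12 to -4.97 and 5.48 to 6.05. The median signals were 126.5, 11972 and 166 in Cy3 and 10727, 367 and 17805 in Cy5. The XIST signal was thus low in Cy3 on arrays 1 and 3 and in Cy5 on array 2, and high in the other channel each time; 3 of the 5 probes were still well above background in both channels of all arrays. Because the sign turned between arrays, the adjusted p values were 0.454 to 0.547 by limma.

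Genes of the Y chromosome turned the opposite way. The probe for Ddx3y gave -5.33, 5.44 and -5.56, and that for Eif2s3y gave -6.57, 5.88 and -6.30. High XIST with low Y genes, the female pattern, thus stood in Cy5 on arrays 1 and 3 and in Cy3 on array 2, and the male pattern in the other channel each time. After these values were seen, all tested probes were searched for the same alternation of sign with at least 0.5 on the log2 scale on each array. It was found for 17 probes, 7 of them intergenic: the 5 of XIST and 2 of the 3 tested probes at chrX:47890565-47915775 (mm9, forward strand). These 2 went the way of the Y genes, at -0.65, 0.54 and -0.59, and at -0.92, 0.58 and -0.56. The remaining probe of the interval had the same signs, with 0.41 on array 2. TSIX, the antisense partner of XIST, was not detected on any array.

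Of all chromosomes, X had the highest share of tested intergenic probes called brighter in Cy3. Of 254 tested, 64 were brighter in Cy3 (25.2%) and 13 in Cy5 (5.12%), against 761 (12.7%) and 237 (3.96%) of 5984 on autosomes. The median log2 ratio on X was -0.13, at -0.15, -0.12 and -0.12 on arrays 1, 2 and 3. The next highest Cy3 shares were 21.7% on chromosome 16, 18.9% on chromosome 7 and 18.5% on chromosome 12, and the lowest was 5.65% on chromosome 11. X also had many calls in all: Cy5 held 16.9% of its calls, and 7 autosomes had a lower Cy5 share, down to 7.69% on chromosome 10. Among other probes named for genes on X, 12.8% of 833 were brighter in Cy3, against 7.92% of those named for autosomal genes. With median centring 16.1% of the intergenic probes on X and 7.38% of the remaining tested intergenic probes were brighter in Cy3, and without array 3 these were 12.6% and 5.77%. The difference between X and the autosomes, and the part of sex in it, were not tested.

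**Figure D5:**
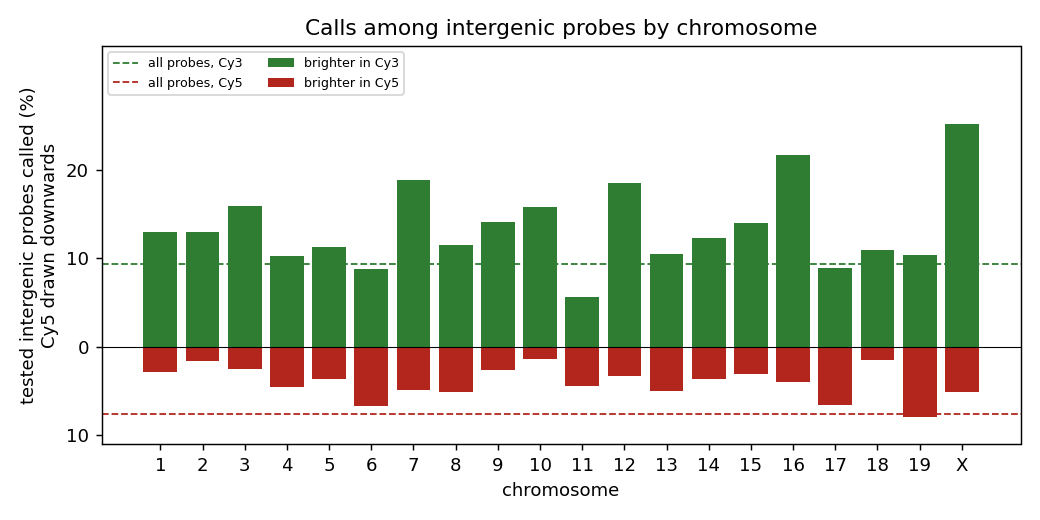
Percentage of tested intergenic probes called on each chromosome, brighter in Cy3 upwards (green) and brighter in Cy5 downwards (red), with dashed lines at the shares over all probes tested, 9.41% and 7.53%. X has the highest Cy3 bar at 25.2%, and chromosome 11 the lowest at 5.65%.

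The X probes came from overlapping regions and do not count as separate units. When overlapping intervals were merged, X held 61 regions with a tested probe, of which 27 had a called probe, 22 in Cy3 only and 3 in Cy5 only. The region at chrX:102567595-102589870 (mm9) had 8 of 9 tested probes brighter in Cy3, with a mean over the 9 of -0.62 and array means of -0.96, -0.44 and -0.48.

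Over all chromosomes the merged regions numbered 2226, and 1538 had a tested probe. Of these, 514 had a called probe, in Cy3 only for 355, in Cy5 only for 121 and in both directions for 38. At chr1:141069536-141076841 all 11 tested probes were brighter in Cy3, with a mean of -0.40 and array means of -0.51, -0.35 and -0.35. At chr7:67111261-67120697, 12 of 16 tested probes were brighter in Cy3, and at chr7:69008096-69131056, 14 of 19. The region with most Cy5 calls beside 1 opposite call was chr13:83860985-84023718, where 8 of 17 were brighter in Cy5, with array means of 0.15, 0.36 and 0.19. At chr17:39960567-39992817, 8 of 20 tested probes were called, all brighter in Cy5. All these coordinates are in mm9, and the neighbouring genes of that build were not used here.

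Calls were also joined into runs along chromosomes, where a run can consist of overlapping intervals and of probes already given above. Calls of the same direction with gaps of at most 500 kb formed runs, and the 6 longest runs by number of called probes were all brighter in Cy3. Cy3 also held 835 of the 1089 intergenic calls. Whether the runs exceed what the number of calls and the spacing of the probes would give was not tested. The longest, chr7:66562376-67120697, held 23 called of 46 tested probes under 10 names, with a median of -0.59 over the called probes and array medians of -0.86, -0.50 and -0.42. It contains the region chr7:67111261-67120697 and the interval chr7:67119535-67120213 given above, so their called probes are counted again. The run at chr12:110769101-111665403 held 19 of 55 under 10 names, with array medians of -0.35, -0.37 and -0.42, and it fell to 8 called without array 3. The run at chr16:40070103-40472481 held 18 of 23 under 7 names, with array medians of -0.72, -0.27 and -0.43, and 5 of its calls held with processed signals. No opposite call lay within these 3 runs, and in the same 3 runs the median over all tested probes stayed below 0 with median centring, at -0.30, -0.15 and -0.39, where 2 probes of the chr12 run were called in Cy5. The longest Cy5 run, chr17:39960567-39992817, is the merged region of overlapping intervals given above. It held 8 of 20, and with processed signals 1 of the 20 was called. All are mm9 coordinates.

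Probes on the same name agreed more often than not. Of 7187 pairs of tested probes on 1576 names, 5219 (72.6%) had the same sign, and of the 623 pairs with both probes called, 18 had opposite signs. The same shares for pairs on different names were not counted, and Cy3 held 835 of the 1089 intergenic calls. How much of the agreement belongs to the names was not tested. The median SD between probes of a name was 0.10 on the log2 scale, against a median SD between arrays of 0.13 for a probe. Of the 695 names with a called probe, 454 had 1 called probe, and 299 of these had at least 2 tested. At least 2 probes were called in Cy3 for 190 names and in Cy5 for 45, and 10 names had calls in both directions. Among the 1022 names with 3 or more tested probes, all were called in Cy3 for 56 and in Cy5 for 7.

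On intervals designed for both strands, detection often fell on a single strand. Of the 1067 intervals designed on both strands, 495 had tested probes on both, 421 on 1 strand only and 151 on none. Called probes lay on both strands for 48 intervals, both in Cy3 for 28 and both in Cy5 for 10, and on 1 strand only for 256. Cy3 calls made up 12.4% of the tested forward probes and 13.9% of the reverse ones, and Cy5 calls 4.78% and 3.32%.

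The shortest intervals leaned more to Cy3 than the longest. When the intervals' probes were split by interval length at its quartiles, the shortest set (62 to 1758 bp) had 18.6% of its tested probes brighter in Cy3 and 1.67% in Cy5, with a median log2 ratio of -0.09. In the longest set (25871 bp and more) the values were 11.5%, 4.82% and -0.01. The middle sets, from shorter to longer, had Cy3 shares of 14.2% and 10.6% and Cy5 shares of 5.04% and 3.61%. Neither share thus moved steadily with length. With median centring the Cy3 shares of the shortest and longest sets were 9.86% and 7.06%, with medians of -0.06 and 0.02. With processed signals they were 12.9% and 8.07%, with medians of -0.24 and -0.12. The order was kept in both settings, and the difference was not tested.

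For comparison, 57 known long noncoding RNA genes were looked up among the probes outside the intergenic design. Of these, 31 had such a probe and 24 passed the filter, each represented by its brightest probe. Brighter in Cy3 were 6, brighter in Cy5 were 2, and 16 were not called, with a median log2 ratio of -0.15. These are 25% and 8.33% of the 24, against 9.41% and 7.53% of all probes tested. The smallest adjusted p values belonged to Pantr1 (above), Sox2ot at -0.60 (adjusted p = 0.00875 by limma), Neat1 at -0.48, Mirg at -0.61 (adjusted p = 0.0146), Dlx6os1 at -0.39 (adjusted p = 0.0164) and Malat1 at -0.39. Sox2ot overlaps the neural stem cell gene Sox2, Dlx6os1 is transcribed beside the interneuron genes Dlx5 and Dlx6, and Mirg is a maternally expressed host of microRNAs. The 2 other probes for Mirg were at 0.17 and 0.06 and not called, so the probes of this gene disagreed. Of the 16 genes not called by their brightest probe, 5 had another probe that was. These were Meg3 at -0.79 (1 of 3 probes), Gas5 at -0.33 (1 of 2), Dleu2 at -0.34 (1 of 2) and Kcnq1ot1, brighter in Cy3, and Norad at 0.44 and 0.42 (2 of 4), brighter in Cy5.

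The authors' deposited table listed 11743 of the intergenic probes, among them all 1089 called here. The sign of the log2 fold change was opposite to the ratio given here for all 1089. The lowest adjusted p-value among these probes in the authors' deposited table was 0.159, so none passed 0.05 there. Over all 40000 rows of that table the lowest was also 0.159, so no other probe passed either.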

How the data were processed

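RNA of 3 pairs of pups was hybridised to 3 two-colour arrays, which lay on 1 slide and came from 1 scan. The scanner files come from Agilent Feature Extraction 10.7.3.1, and mm9 is the build of the grid, per the file headers. The deposited intensity is the median over the pixels of a spot and of the local background around it, not normalized, and medians served as the spot signals. The processed intensity, which that software had background-subtracted, detrended and dye-normalized per the file headers, served as an alternative. The log10 ratio of the processed signals, deposited per the file headers, was not tested. The authors' deposited table holds log2 fold changes and averages, a t score and a log-odds score, and a p-value with its adjusted value; limma is named in the submitters' processing notes, and the sources used here state neither its normalization nor its direction. Scanner flags for detection are 0 or 1, per the file headers.

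Here the medians were corrected with normexp (offset 50) and normalized by loess within arrays in limma 3.58.1 under R 4.3.3, with control spots and outlier spots (250 to 272 per array) at weight 0. No spot was saturated. A probe entered the test where 2 or more of 3 arrays showed it well above background in either channel. Its log2 ratio of Cy5 over Cy3 was set against 0 in limma with only an intercept, two-sided, and p-values were adjusted by Benjamini-Hochberg over 32983 probes and a threshold of 0.05. The fit was tested on simulated data. Values after ± are SDs over 3 arrays, whose number limits the precision.

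A bound of a fold is the mean of the brighter channel over the dim channel's value, or over the array's lowest signal well above background where that was higher, after loess and Aquantile. Probes named in the text are the 12 of largest and the 12 of smallest ratio among those called with the same sign on all arrays, the 10 brightest, the 5 names with at least 2 called probes and the largest mean ratio, the 6 largest bounds among probes seen in 1 channel, the probes with RNA names, and the 6 known noncoding RNA genes with the smallest adjusted p; merged regions, runs and the alternating probes were chosen after their values were seen. The members, lists and rules were chosen with earlier results of these data known. Gene names come from RefSeq (GRCm38.p6) accessions or the authors' deposited table. The alternatives changed the normalization, the signals, the background correction, the offset, the filter, the threshold, the unit of the test and the arrays.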

Additional observations from a re-analysis of the deposited data

How the results depend on the processing

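With median centring in place of loess, Cy5 calls numbered 394 and Cy3 calls 485, and the median log2 ratio was -0.0094. With the scanner's processed signals 75 were brighter in Cy5, and the median was -0.17. Without the filter the median was -0.0048. With 1 probe per name, where fewer probes were tested, the counts were 149 in Cy5 and 319 in Cy3, with a median of 0.0032 against -0.0073 for all probes, the reverse of the main order. At an adjusted p of 0.01 the counts were 22 in Cy5 and 67 in Cy3 (24.7% in Cy5). Over all probes tested they were 340 and 248 at that threshold (57.8% in Cy5). Leaving out 1 array gave 87 to 208 probes brighter in Cy5 and 379 to 855 in Cy3, the lowest without array 3. Calls over all probes tested were also fewest without array 3, at 949 in Cy5 and 1370 in Cy3. Detection in Cy3 was 65.6% under the positive and significant flag and 55.9% under the background median plus 2 SD, and in Cy5 60.4% and 30.4%. Without normalization the median ratio was 0.73. Signs turned for A_30_P01031754 with median centring (0.44). With processed signals they turned for A_30_P01019512 (-0.21), A_30_P01021243 (-0.051), A_30_P01022075 (-0.050) and A_30_P01030669 (-0.089). A_30_P01019512 also turned with intensity bins set to 0 (-0.14) and without array 3, where leaving out 1 array gave -0.068 to 0.137. A_30_P01021623 turned without array 1, with a range of -0.0097 to 0.157. Of these, A_30_P01022075 was called in the main setting. The other counts stayed within 1.5 times the main one, and the cause of the shifts was not tested. No further paired analysis was run, because the ratio within each array is already the paired comparison and there is 1 group. The fit with the slide as a block was not run, since all 3 arrays lay on 1 slide. Signal over background limits the result: 53.7% of the intergenic probes were detected in neither channel of any array.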
